A study of Mus musculus with 14 samples.

Results

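The potassium channel genes of the mouse were taken as every protein-coding gene in the count table whose symbol starts with Kcn, followed by letters and a number. This gave 93 members of 24100 genes, in 20 subfamilies by symbol stem. There were 30 voltage-gated pore subunits, 10 modifier subunits, 8 calcium- and sodium-activated subunits, 15 inward rectifiers, 14 two-pore-domain channels and 16 auxiliary subunits. The symbol search found 98 genes, and 5 were left out: the non-coding Kcnq1ot1, Kcnmb4os1, Kcnmb4os2 and Kcnd3os, and Kcnrg, whose symbol carries no number.

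RNA was sequenced from cerebellum at postnatal day 21. Mice were wild type (WT) or knockout (KO) for Astn2, a membrane protein gene linked to neuronal migration and synaptic protein traffic, and littermates of both genotypes were used. Every group carried the transgene Tg(Pcp2-L10a-EGFP), in which the Purkinje cell promoter Pcp2 drives an EGFP-tagged ribosomal protein, so no library came from a mouse without tagged ribosomes. TRAP, translating ribosome affinity purification, collects the RNA bound to tagged ribosomes with antibodies against GFP, and input is RNA of the whole cerebellum before the purification. The groups were 4 input WT libraries (1 female, 3 male), 3 input KO (2 female, 1 male), 3 TRAP WT (1 female, 2 male) and 4 TRAP KO (2 female, 2 male). The labels do not say that each library came from a separate animal, so p-values measure the spread between these libraries. The labels restrict the knockout to no cell type.

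Potassium channels set the resting potential, repolarise the action potential and shape firing. A pore is built from pore subunits, which assemble within a subfamily, and modifier subunits that form no channel alone join them. Auxiliary subunits change the gating or the surface level of a pore. In Purkinje cells, which fire fast simple spikes, Kv3 channels (Kcnc) and the large-conductance calcium-activated BK channel (pore Kcnma1) are known for rapid repolarisation, and SK channels (Kcnn) for the pause that follows a spike.

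The 250 bases upstream of the annotated start are shown for 4 members whose values the results turn on: the BK pore Kcnma1 with its partner Kcnmb4, both higher in TRAP, and the Kv1 genes Kcna6 and Kcna2, which differed in opposite directions. Sequences are from RefSeq, build GRCm38.p6, written 5′ to 3′ on the gene's strand, and capitals mark GGGCGG or its reverse complement. The windows are chr14:24004206-24004455, minus strand for Kcnma1, chr10:116473524-116473773, minus strand for Kcnmb4, chr6:126740675-126740924, minus strand for Kcna6, and chr3:107101317-107101566, plus strand for Kcna2.
Kcnma1: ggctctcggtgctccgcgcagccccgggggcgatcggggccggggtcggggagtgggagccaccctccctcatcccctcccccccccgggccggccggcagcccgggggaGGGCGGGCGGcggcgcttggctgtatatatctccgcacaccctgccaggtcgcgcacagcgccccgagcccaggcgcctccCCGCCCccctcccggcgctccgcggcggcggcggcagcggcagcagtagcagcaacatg
Kcnmb4: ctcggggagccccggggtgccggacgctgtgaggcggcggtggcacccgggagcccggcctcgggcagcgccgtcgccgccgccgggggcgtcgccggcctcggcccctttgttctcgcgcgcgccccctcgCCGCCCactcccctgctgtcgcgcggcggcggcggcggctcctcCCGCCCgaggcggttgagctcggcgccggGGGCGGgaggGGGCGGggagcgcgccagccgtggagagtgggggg
Kcna6: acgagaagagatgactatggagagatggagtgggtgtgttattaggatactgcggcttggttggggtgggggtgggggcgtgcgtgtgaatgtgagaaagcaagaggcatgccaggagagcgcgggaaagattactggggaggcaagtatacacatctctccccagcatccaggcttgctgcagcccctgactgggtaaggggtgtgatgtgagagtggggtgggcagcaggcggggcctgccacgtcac
Kcna2: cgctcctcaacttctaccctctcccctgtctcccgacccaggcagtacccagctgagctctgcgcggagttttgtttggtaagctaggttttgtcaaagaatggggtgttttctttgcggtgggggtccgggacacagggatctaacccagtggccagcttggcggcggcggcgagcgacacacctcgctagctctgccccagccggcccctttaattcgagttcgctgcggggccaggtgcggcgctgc
Kcnma1 had 31 CpG in its window, Kcnmb4 43, Kcna6 8 and Kcna2 18. The TATA box TATAAA, the GC box GGGCGG, the CAAT box CCAAT, the E-box CACGTG and the nuclear receptor half-site AGGTCA were each searched on both strands, and in these 4 windows only GGGCGG was found, in Kcnma1 and Kcnmb4. RefSeq windows were matched for 68 of the 93 members, 93 windows in all because some genes have several starts. GGGCGG was in 45.2% of the member windows and in 32.7% of all 32851 windows of that length. It was in 9 of 20 windows of members called higher in TRAP in both genotypes and in 20 of 45 of those called lower. A match describes letters in a window and says nothing of a factor bound there.

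The libraries held 18.8 to 54.2 M counts each (M, 1000000), so 3 counts, the smallest level taken as seen, correspond to 0.0553 to 0.160 counts per 1000000 counts (CPM) before scaling. With the TMM scaling of the CPM values given below, 3 counts were 0.0444 CPM in input KO replicate 3 and 0.204 in TRAP WT replicate 1. Astn2 itself was at 87.8 to 104 CPM in input WT and 116 to 145 in TRAP WT, against 0.739 to 0.970 in input KO and 1.06 to 2.10 in TRAP KO, so the libraries match their genotype labels. The label of the TRAP libraries was checked with 7 Purkinje markers other than the members, such as Pcp2 and Calb1. All 7 were called higher in TRAP, in WT and in KO, and their summed level was 61215 to 76192 CPM in TRAP and 5009 to 6118 in input. All 6 granule cell, 4 interneuron, 6 astroglia, 6 oligodendrocyte and 5 microglia markers were lower in TRAP in both genotypes but not at 0: granule markers summed to 604 to 1183 CPM in TRAP and 4167 to 4513 in input. The 5 endothelium and 5 mural markers were all called lower in WT. In KO, 3 endothelium and 4 mural markers were called lower and the others were not called. In bulk RNA, fewer cells of a type and less RNA per cell cannot be told apart.

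The summed level of choroid plexus markers (Ttr, Kl, Folr1, Clic6 and Otx2) stood apart within the inputs. It was 409 CPM in input WT replicate 2, 285 in input WT replicate 3 and 1173 in input KO replicate 2. The other 4 inputs were at 16.96 to 27.9 CPM. Most of the high sums was Ttr, at 360, 253 and 1080 CPM in the same order. Kl, Folr1 and Clic6 were also highest in those inputs. Otx2 did not follow in input WT replicate 3, at 6.68 CPM against 13.05 in input WT replicate 1. Clic6 was higher in TRAP, at 81.4 to 133 CPM, than in input, at 7.13 to 35.6. Replicate 3 of TRAP WT also stood apart: it was the highest of the 7 TRAP libraries for 29 of the 58 members tested there (50.0%) and for 31.1% of all 14145 genes tested. Where leaving out such a library changed the call of a member described below, the value without it is given. TRAP KO replicate 4 was the lowest of the 7 TRAP libraries for 22 of the 58 members (37.9%) and for 17.9% of all genes tested. Without it, Kcne2, Kcne4 and Kcnf1 were among the members that lost their KO call in TRAP against input.

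TRAP and input were compared to ask which channel RNAs were relatively more abundant on Purkinje ribosomes than in the whole cerebellum. All log2 fold changes below come from edgeR's quasi-likelihood test with TMM scaling and sex as a covariate, and a gene was called when its Benjamini-Hochberg adjusted p over all genes tested was under 0.05. Of the 93 members, 77 were tested: 58 reached the filter on low counts in both fractions, 18 in input only and 1, Kcnh4, in TRAP only. The other 16 reached it in neither, among them Kcnk16, with 0 counts in every library. In WT, 20 members were called higher in TRAP and 42 lower, while 75.5% of the 16042 genes tested were called, 37.0% higher and 38.5% lower. In KO, 19 were higher and 44 lower, against 75.9% of all genes, 36.3% higher and 39.6% lower. Among the 58 members that reached the filter in both fractions, 19 were higher and 29 lower in WT, and 18 were higher and 29 lower in KO. The 18 that passed through input alone had to be low in TRAP, and Kcnh4 had to be high in it, so their calls carry no weight. Where Kcna3, Kcnb2, Kcne2, Kcne4, Kcnf1, Kcnh5, Kcnj13, Kcnj14 and Kcnu1, which are among these 18, are given below, their values are a description. Over all genes tested, the median was -0.09 on the log2 scale in WT and -0.11 in KO, while over the 58 members it was -0.51 and -0.33.

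The same call was made in both genotypes for 17 members higher and 41 lower, and no member was called in opposite directions. With library totals in place of TMM, the median of all genes moved to -0.91 in WT and -0.85 in KO, and the members split 15 higher against 53 lower in WT and 14 against 58 in KO. Of all 16042 genes tested, 12936 were called in WT and 12802 in KO in these fits, in either direction. The member counts include those that reached the filter in input only. Under that scaling the sign turned for 4 called members in WT, among them Kcnd1, Kcnj11 and Kcns1, and for Kcnk4 and Kcns1 in KO. Directions below are relative to the other genes of a library.

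**Figure D1:**
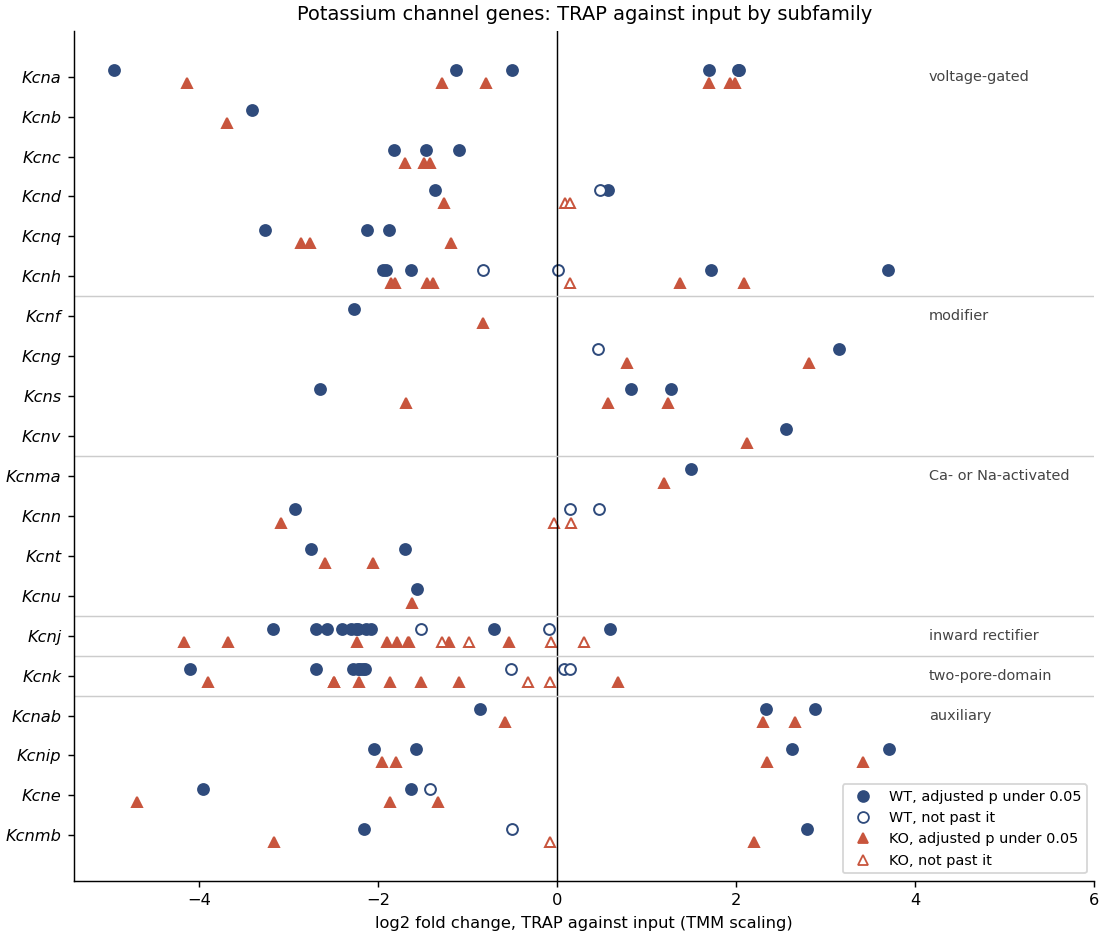
Log2 fold change of TRAP against input (horizontal axis, TMM scaling) for 73 of the 77 tested members, 1 row per subfamily; circles are WT, triangles KO, and filled symbols passed an adjusted p of 0.05. Inward rectifiers and two-pore-domain channels lie mostly left of 0, while most subfamilies of voltage-gated and auxiliary subunits hold members on both sides.

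The members' make-up by role differed between the fractions. Levels of different genes are compared here per kilobase of the longest GENCODE M21 coding transcript (CPM per kb), and shares of the summed CPM per kb do not depend on the scaling between libraries. The shares do depend on the transcript lengths used, and their SD covers the spread between libraries only. Auxiliary subunits made up 23.6% ± 0.450 (SD, n = 4) of member RNA in input WT and 55.1% ± 0.724 (n = 3) in TRAP WT. Modifier subunits had 3.54% ± 0.248 in input WT and 12.01% ± 2.19 in TRAP WT. Voltage-gated pores made up 42.5% ± 0.813 in input WT and 25.5% ± 2.12 in TRAP WT, inward rectifiers 12.8% ± 0.318 and 2.78% ± 0.0857, and two-pore-domain channels 13.3% ± 0.0949 and 3.45% ± 0.166. The ranges of input and TRAP did not overlap for any of these 5 roles in either genotype. A share is relative to the sum over the members, so a lower share is not by itself a lower level. All members together took 0.655% ± 0.0180 of the unscaled counts in input WT and 0.706% ± 0.0967 in TRAP WT, and these ranges overlapped. With TMM scaling their summed CPM was 4983 ± 126 in input WT and 9441 ± 1396 in TRAP WT. Those ranges did not overlap, so the relation between the fractions depends on the scaling.

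Among the voltage-gated pores, 30 members, 9 were called higher in TRAP in WT and 14 lower, and in KO 7 higher and 15 lower. Of the 21 that reached the filter in both fractions, 10 were lower in each genotype. In the Kv3 subfamily, known for rapid repolarisation, Kcnc1, which encodes Kv3.1, was lower in TRAP. It was at 726, 665, 605 and 615 CPM in input WT and 226, 203 and 278 in TRAP WT, which on the log2 scale was -1.46 ± 0.15 for WT and -1.43 ± 0.15 for KO. Kcnc2 and Kcnc4 were also lower in TRAP in both genotypes.

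The Kv1 subfamily, voltage-gated channels that set excitability at axons and terminals, held members called in both directions. Kcna6 (Kv1.6) was at 52.1, 54.6, 61.8 and 75 CPM in input WT and 198, 267 and 274 in TRAP WT. It was at 58.2 to 59.9 in input KO and 220 to 244 in TRAP KO. The log2 fold change for WT was 2.03 ± 0.12, and that for KO 1.98 ± 0.13. Kcna4 and Kcna5 were also higher in both genotypes, by 2.01 and 1.69 on the log2 scale in WT. Kcna2 (Kv1.2) was lower, at 357 to 384 CPM in input WT and 154 to 182 in TRAP WT, and Kcna1 (Kv1.1) was lower by a smaller margin, -0.51 ± 0.15 on the log2 scale for WT and -0.79 ± 0.15 for KO. Without TRAP WT replicate 1 the WT value of Kcna1 was -0.38 (adjusted p = 0.0501). It was -0.81 without TRAP WT replicate 3. Kcna3 (Kv1.3), which reached the filter in input only, was at 3.66 to 4.69 CPM in input WT and 0.0560 to 0.247 in TRAP WT. As a share of Kv1 RNA per kb, Kcna6 was at 7.86% ± 1.05 in input WT and 35.6% ± 4.12 in TRAP WT, and Kcna2 was at 24.5% ± 1.60 and 12.5% ± 1.87. The longest coding transcript of Kcna2 has 11582 bases and the mean is 6127, so the size of these shares depends on the length used.

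**Figure D2:**
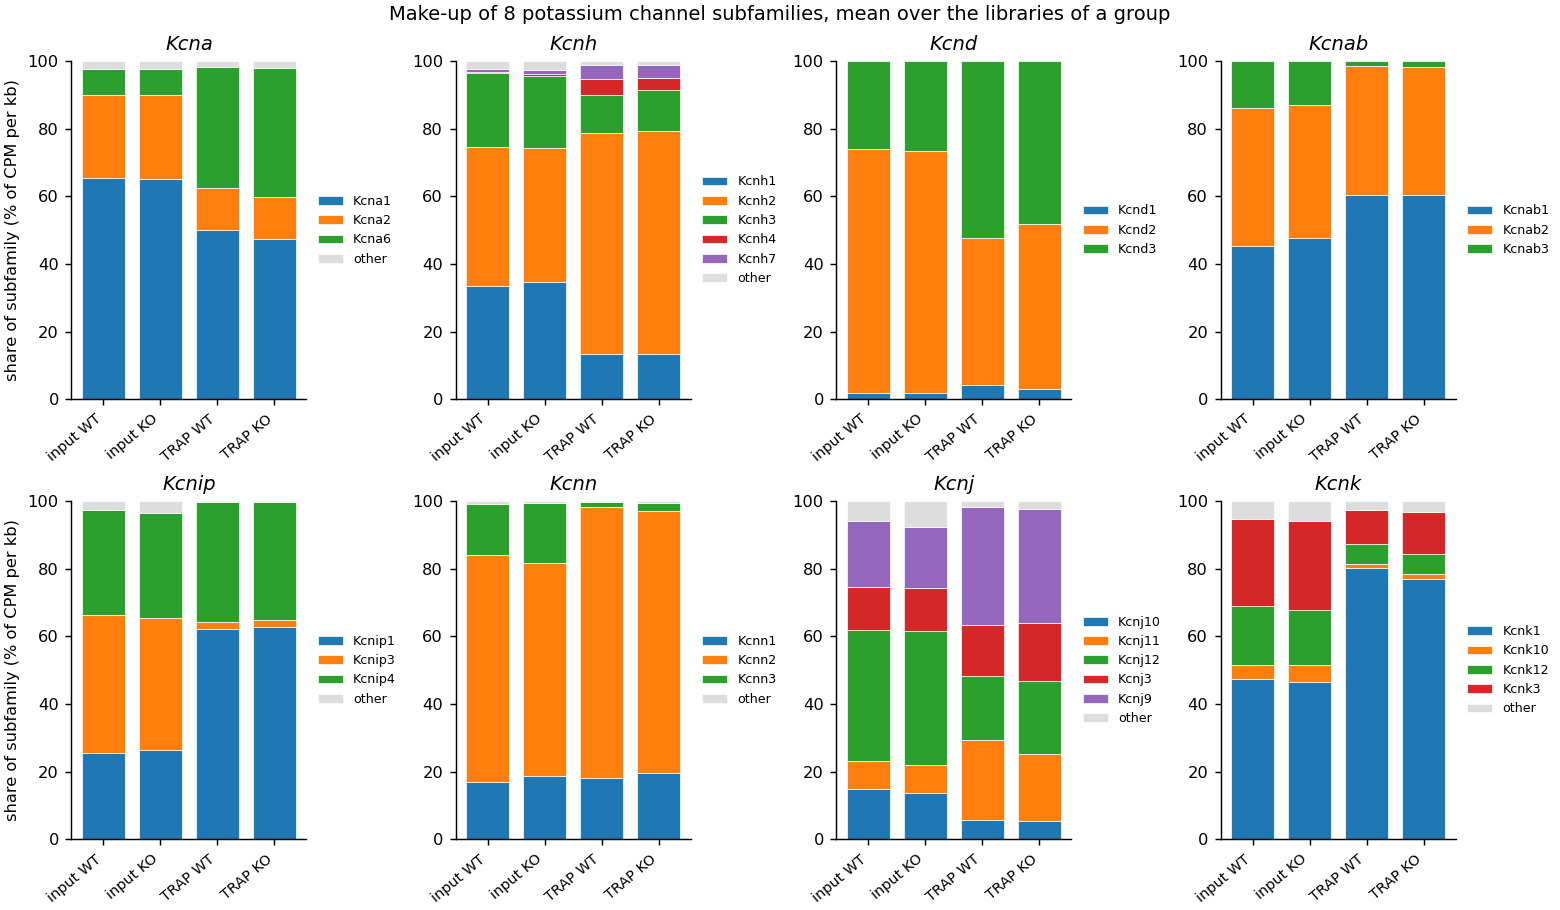
Share of each member in its subfamily's summed CPM per kb (vertical axis, %), as the mean over the libraries of each group; members that stay under a small share in every group are joined as other. Kcna6, Kcnh2, Kcnip1 and Kcnk1 hold a larger share in TRAP than in input in both genotypes.

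Of the Kv4 genes, whose A-type current activates below spike threshold, Kcnd2 was lower in TRAP, at 129, 152, 152 and 151 CPM in input WT and 62.7, 55.1 and 52.3 in TRAP WT (log2 fold change -1.37 ± 0.12, and -1.27 ± 0.12 in KO). Kcnd3 was not called, at 64.6 to 82.0 CPM in input WT and at 82.9, 69.2 and 152 in TRAP WT, where replicate 3 was the high one. The Kcnd3 share of Kv4 RNA per kb was 26.1% ± 3.32 in input WT and 52.3% ± 10.8 in TRAP WT. Its longest coding transcript has 7169 bases and the mean is 3980, so the size of this share depends on the length used. Kcnb2 (Kv2.2), which reached the filter in input only, had a log2 fold change of -3.42 ± 0.39 in WT.

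Of the Kv7 subfamily, which holds the M-current genes, 2 members that reached the filter in both fractions are described here. Kcnq3 was lower, from 5.99 to 7.90 CPM in input WT and 0.560 to 1.02 in TRAP WT (log2 fold change -3.27 ± 0.26), and Kcnq5 was lower as well.

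In the ether-a-go-go subfamily, Kcnh7 was higher in both genotypes (1.72 ± 0.30 in WT and 1.37 ± 0.31 in KO), at 1.51 to 2.22 CPM in input WT and at 3.54, 4.09 and 10.2 in TRAP WT. Without TRAP WT replicate 3 its WT value was 1.05 and still called, and with library totals its KO call was lost (0.63, adjusted p = 0.0663). Kcnh4, which reached the filter in TRAP only, was at 0.840 to 3.42 CPM in TRAP WT and with 0.0608 to 0.205 in input WT, near the floor of 3 counts. Kcnh2, which encodes the ERG1 channel, was at 26.4 to 30.5 CPM in input WT and 26.9 to 30.5 in TRAP WT and was not called. Kcnh1 and Kcnh3 were lower in both genotypes.

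Modifier subunits are silent alone and alter the pores they join, chiefly Kv2. Of 10 members, 7 were tested, and 4 were called higher in TRAP in WT and 5 in KO. Of the 5 that reached the filter in both fractions, 0 were lower in either genotype. Kcng4 (Kv6.4) was at 130, 128, 147 and 155 CPM in input WT and 1017, 946 and 1715 in TRAP WT, and in KO at 128, 119 and 128 in input and 858, 865, 915 and 890 in TRAP. All TRAP values lay above all input values, and the log2 fold change was 3.15 ± 0.17 for WT and 2.81 ± 0.18 for KO (adjusted p = 1.79e-09 and 1.18e-08). Without TRAP WT replicate 3 the WT value was 2.80 and still called. Kcns2 was higher at a lower level, 15.8 to 20.98 CPM in TRAP WT against 6.57 to 8.30 in input WT. Kcnv2 was higher in both genotypes too (2.56 ± 0.34 in WT), at no more than 3.01 CPM in any library. Kcnf1, which reached the filter in input only, was at 0.550 to 1.20 CPM in input WT and 0.204, 0.112 and 0.206 in TRAP WT, from 3, 2 and 5 counts.

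The BK pore Kcnma1 and its beta subunit Kcnmb4 were higher in TRAP, while the beta subunit Kcnmb1 was not called (-0.51 ± 0.34 in WT). Kcnma1, the pore, was at 49.0, 52.2, 59.0 and 72.5 CPM in input WT and 128, 124 and 233 in TRAP WT, and in KO at 63.4, 61.5 and 58.6 in input and 125, 136, 145 and 167 in TRAP. Every TRAP library lay above every input library. On the log2 scale TRAP exceeded input by 1.50 ± 0.19 in WT and 1.19 ± 0.19 in KO (adjusted p = 6.05e-06 and 8.13e-05), and without TRAP WT replicate 3 it was 1.13 in WT and still called. Kcnmb4, the neuronal BK beta subunit, which slows activation, was at 75.4, 70.6, 69.4 and 62.8 CPM in input WT and 379, 537 and 513 in TRAP WT. In KO it was at 71.2, 73.7 and 71.7 in input and 423, 308, 318 and 250 in TRAP, giving 2.78 ± 0.17 on the log2 scale for WT and 2.19 ± 0.17 for KO. Kcnmb4 made up 98.6% to 99.9% of the Kcnmb RNA per kb by group mean. The ratio of Kcnmb4 to Kcnma1 per kb was 10.9 ± 2.53 in input WT and 28.0 ± 9.56 in TRAP WT. The size of that ratio depends on the transcript lengths used, while the fold between the fractions does not.

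**Figure D3:**
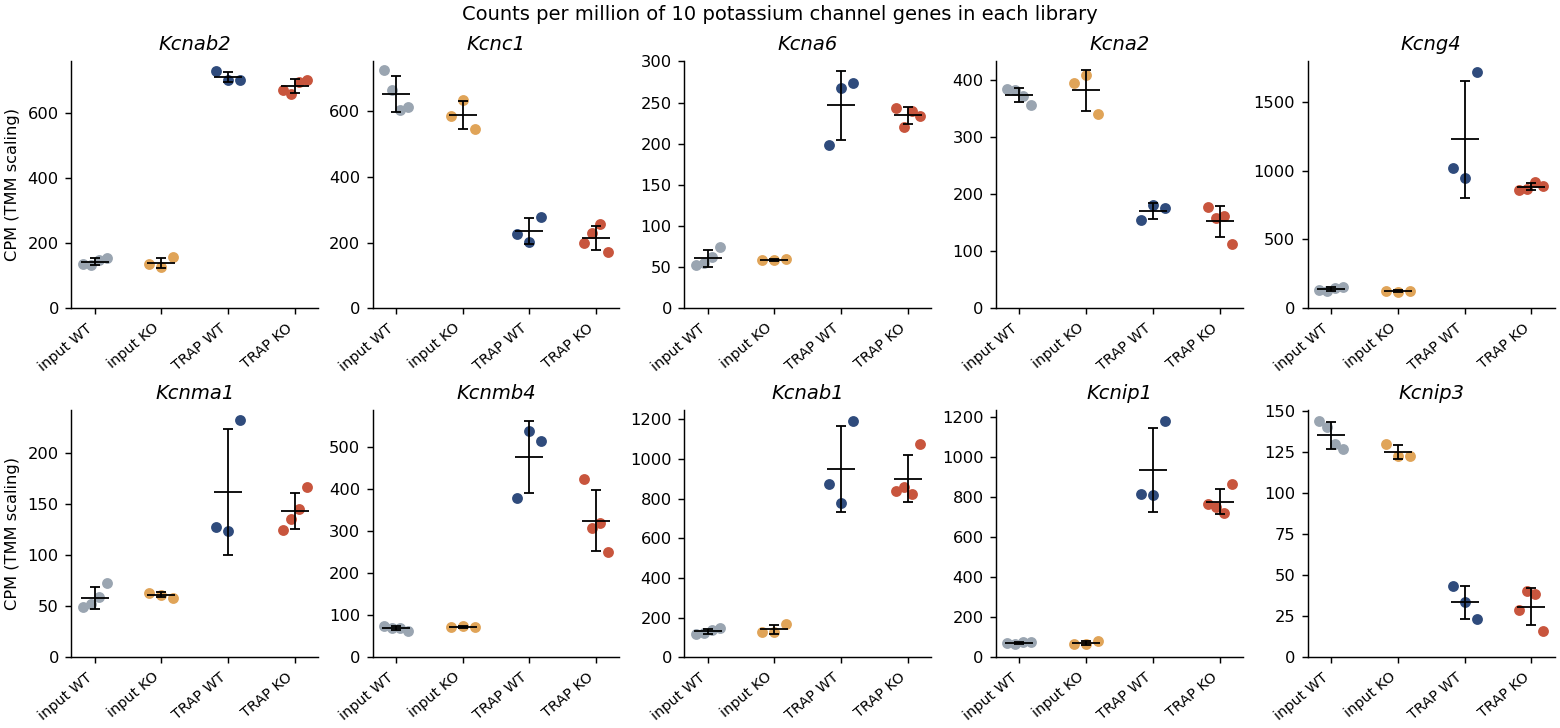
CPM (vertical axis, TMM scaling) of 10 members in each library; points are libraries in 4 groups, and the bar with whiskers is the mean and SD. In 7 of the 10 the TRAP libraries lie above the input libraries; in Kcnc1, Kcna2 and Kcnip3 they lie below. The high TRAP WT point in Kcng4 and Kcnma1 is replicate 3.

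Of the other calcium- and sodium-activated genes, none was called higher. Kcnn2, the SK2 gene, was at 24.4 to 31.8 CPM in input WT and 30.4, 23.8 and 59.9 in TRAP WT and was not called (0.47 ± 0.23 in WT). That value was -0.08 without TRAP WT replicate 3, and it was called higher without replicate 1 (0.61, adjusted p = 0.0484) or without replicate 2 (0.67, adjusted p = 0.00527). Kcnn3 (SK3) was lower, -2.94 ± 0.39 in WT and -3.09 ± 0.36 in KO, and its WT value was -3.85 without TRAP WT replicate 3. The sodium-activated Kcnt1 (Slack) was lower, at 171 to 203 CPM in input WT and 23.7 to 32.5 in TRAP WT, and its log2 fold change was -2.76 ± 0.27. Kcnu1, which reached the filter in input only, was under 1 CPM in every library.

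Inward rectifiers, which hold the resting potential and buffer potassium, held 8 members of 15 that reached the filter in both fractions. Of these, 6 were lower in TRAP in each genotype, 1 was called higher in WT and 0 in KO. Kcnj10, the glial Kir4.1 gene, was at 98.9, 105, 122 and 135 CPM in input WT and 26.1, 22.5 and 17.9 in TRAP WT (log2 fold change -2.40 ± 0.21). Its partner Kcnj16 was also lower (-2.57 ± 0.68), and in KO (-1.66) it lost its call without input KO replicate 1 (-1.26, adjusted p = 0.0874) or without TRAP KO replicate 1 or 2 (-1.71 and -1.68). Without input KO replicate 3 that value was -2.32, and the WT value was -3.31 without TRAP WT replicate 2. Without the 3 inputs high in choroid plexus markers, Kcnj16 lost both calls, at -1.89 in WT (adjusted p = 0.05004) and -1.53 in KO (adjusted p = 0.0635). The astroglia markers summed to 1091 to 1504 CPM in input and 284 to 551 in TRAP, and their part in these values was not tested. Kcnj6, the GIRK2 gene, was lower, at 12.6 to 13.7 CPM in input WT and 0.504 to 2.18 in TRAP WT, with a WT log2 fold change of -3.18, and -3.77 without TRAP WT replicate 3. Kcnj9 (GIRK3), the GIRK gene with the highest share in TRAP, was not called (-0.10 ± 0.19 in WT), but without TRAP WT replicate 3 it was called lower (-0.48, adjusted p = 0.00503). Kcnj12 (Kir2.2), with the highest share of the subfamily per kb in input, was lower, with 131 to 154 CPM in input WT and 21.4 to 43.7 in TRAP WT. Kcnj11, the pore of the ATP-sensitive channel, was the member called higher in WT (0.59 ± 0.17), with 41.4, 49.9 and 79.1 CPM in TRAP WT, and without TRAP WT replicate 3 it was 0.25 and not called (adjusted p = 0.0824). Nor was it called without the 3 inputs high in choroid plexus markers (0.58, adjusted p = 0.0634).

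Two-pore-domain channels carry leak current. Of 14 members, 9 reached the filter in both fractions, and of these 7 were lower in each genotype, 0 were called higher in WT and 1, Kcnk4, in KO. Kcnk9 (TASK3) was at 13.2, 10.8, 11.6 and 11.5 CPM in input WT and 0.544, 0.168 and 1.20 in TRAP WT, and its log2 fold change of -4.10 ± 0.38 was the lowest of the members that reached the filter in both fractions, and -5.16 without TRAP WT replicate 3. The granule cell markers moved in the same direction, and their part was not tested. Kcnk10 and Kcnk2 were lower, with log2 fold changes of -2.69 ± 0.18 and -2.20 ± 0.18 in WT. Kcnk3 (TASK1) was lower too, at 142 to 154 CPM in input WT and 16.98 to 43.2 in TRAP WT. Kcnk1 (TWIK1), the member with the highest level per kb of this subfamily in all groups, was not called, at 153 to 169 CPM in input WT and 145 to 206 in TRAP WT. Its share of the subfamily was 47.3% ± 1.62 in input WT and 80.3% ± 7.54 in TRAP WT.

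Of the 16 auxiliary subunits, 5 were called higher in TRAP in each genotype, 6 lower in WT and 7 lower in KO. Of the 10 that reached the filter in both fractions, 4 were lower in each. Kcnip1 and Kcnab1 had the highest values among them. Kcnab1, a cytoplasmic Kv1 beta subunit, was at 118, 121, 137 and 148 CPM in input WT and 874, 780 and 1193 in TRAP WT (log2 fold change 2.88 ± 0.15, and 2.66 ± 0.16 in KO). Kcnab2 was at 132 to 153 in input WT and at 729, 703 and 701 in TRAP WT, 2.33 ± 0.10 in WT and 2.29 ± 0.10 in KO, with little spread between libraries. Kcnab3 was lower (-0.87 ± 0.16 in WT), and its share of the subfamily was 14.02% ± 1.15 in input WT and 1.47% ± 0.578 in TRAP WT.

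The KChIP genes, whose calcium-binding proteins raise Kv4 surface levels, divided 2 against 2. Kcnip1 was at 71.8, 67.0, 75.9 and 74.9 CPM in input WT and 819, 811 and 1181 in TRAP WT, and in KO at 68.6, 67.1 and 83.5 in input and 769, 753, 722 and 867 in TRAP. Its log2 fold change, 3.71 ± 0.14 in WT and 3.41 ± 0.15 in KO, was the highest of all members in both genotypes (adjusted p = 1.12e-10 and 6.17e-10). Kcnip4 was higher as well, 2.62 ± 0.14 in WT and 2.34 ± 0.15 in KO. Kcnip3 was lower, at 144, 141, 130 and 127 CPM in input WT and 43.8, 33.7 and 23.5 in TRAP WT (-2.05 ± 0.25), and Kcnip2 was lower too. Kcnip1 made up 25.6% ± 1.46 of the subfamily per kb in input WT and 62.2% ± 0.341 in TRAP WT, and Kcnip3 40.7% ± 2.17 and 2.03% ± 0.894. Kcnd2, a Kv4 pore these proteins bind, was lower in TRAP. Of the single-span KCNE subunits, Kcne1l was lower in both genotypes, at 4.95 to 6.14 CPM in input WT and 1.40 to 2.13 in TRAP WT. Kcne4, which reached the filter in input only, was under 0.5 CPM in every library.

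Of further proteins that bind these channels or act on their assembly, 17 had been listed. Of these, 2 were higher and 13 lower in TRAP in each genotype, against 37.0% higher and 38.5% lower of all genes in WT. The 13 include Kcnrg and Lrrc26, which reached the filter on low counts in input only, so their calls carry no weight. They were at no more than 0.292 and 0.528 CPM in any TRAP library. Dpp10, a Kv4 partner, was higher (2.42 in WT and 2.38 in KO) while its paralogue Dpp6 was lower (-1.54 in WT and -1.39 in KO). Adam23, part of the LGI1 complex at Kv1 channels, was higher (1.88 in WT), and Lgi1 (-2.49) and Adam22 were lower. Lrrc52 did not pass the filter, and Amigo1 was not called.

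Kcne2 and Kcnj13, both known from choroid plexus epithelium, followed the summed level of the choroid plexus markers across the input libraries. Kcne2 was at 0.116, 3.11, 2.38 and 0.182 CPM in input WT replicates 1 to 4 and at 0.0844, 9.98 and 0.0740 in input KO replicates 1 to 3. Kcnj13 was at 0.579, 2.82, 2.54 and 0.760 in input WT and 0.401, 7.35 and 0.696 in input KO. Both were high in the same 3 inputs that were high for Ttr, and at 1.01 CPM or less in every TRAP library. Ttr was also high in TRAP WT replicates 2 and 3, at 96.5 and 65.8 CPM, against 1.14 to 2.11 in the other TRAP libraries. Kcne2 was at 1.01 and 0.577 CPM in those replicates and at 0.195 or less in the other TRAP libraries. Kcnj13 was at 0.728 and 0.165 CPM there, against 0.0390 to 0.280. In KO both were called lower in TRAP, at -4.69 ± 1.89 on the log2 scale for Kcne2 and -4.17 ± 1.15 for Kcnj13. Without input KO replicate 2 they were 0.95 and -1.75, and neither was called (adjusted p = 0.619 and 0.0554). Without input KO replicate 3 Kcne2 was -6.39 and Kcnj13 -5.21, and Kcnj13 was -4.95 without TRAP KO replicate 2. Without all 3 inputs, an alternative chosen after seeing the data, the KO values were 0.75 (adjusted p = 0.570) and -1.80 (adjusted p = 0.0299). In WT neither was called, at -1.42 for Kcne2 and -2.25 for Kcnj13 (adjusted p = 0.427 and 0.0804), and without the 3 inputs the WT values were 1.69 (adjusted p = 0.174) and -1.0002 (adjusted p = 0.211). With genotype and replicate number as a block, Kcnj13 was called lower in WT (-2.51, adjusted p = 0.00121). That fit also left out input WT replicate 4 and TRAP KO replicate 4, which have no library of the same number in the other fraction. Kcnj13 was also called lower in WT without input KO replicate 1 (-2.27), input KO replicate 2 (-2.13) or input WT replicate 1 (-2.86). Leaving out the 3 inputs left 56 members called in WT and 54 in KO. Of all 15825 genes tested in that fit, 10378 were called in WT and 10686 in KO.

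**Figure D4:**
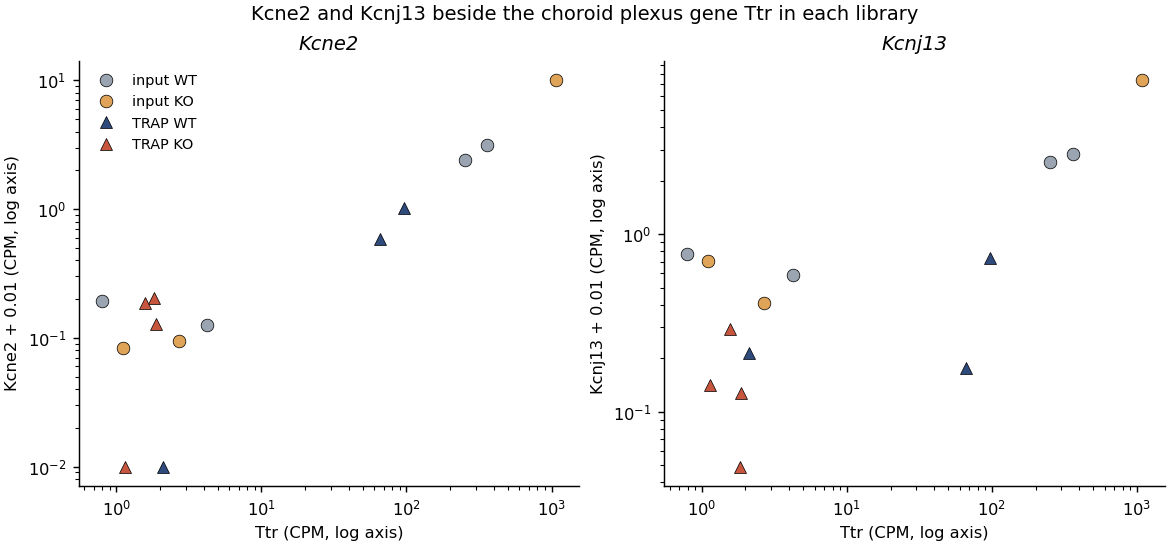
CPM of Kcne2 (left) and Kcnj13 (right) on the vertical axis against CPM of the choroid plexus gene Ttr on the horizontal axis, 1 point per library, both axes logarithmic, with a small constant added to the vertical values so that libraries at 0 appear. Circles are input and triangles TRAP. The 3 inputs high for Ttr are the 3 highest libraries for both members.

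KO was compared with WT within each fraction to ask whether the loss of Astn2 went with a difference in channel RNA. In TRAP, 0 of 58 members tested were called by edgeR, where 0.00707% of all genes were called (1 gene, Astn2). At an unadjusted p under 0.05 there were 2 members, Kcnj2 and Kcnmb4, against 1.50% of all genes. The DESeq2 Wald test called 0 members and 3 of all 14145 genes. In input, 0 of 78 were called by edgeR, against 0.0188% of all genes (0.00625% higher, 0.0125% lower), with 10 at an unadjusted p under 0.05 against 13.7% of all genes. DESeq2 called 2 of the members there and 294 of all 15997 genes. For the difference between the genotype effects in the 2 fractions (the interaction), 0 of 77 were called, 0% of all genes were, and 6 members had an unadjusted p under 0.05 against 2.68% of all genes. DESeq2 called 0 members for it and 1 of all 16042 genes. The KO groups lay wholly above or below WT for 5 of 58 members in TRAP, against 4.56% of all genes tested there, and for 7 of 78 in input, against 11.4%.

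Kcnt1 had the lowest p in input. It was at 203, 184, 179 and 171 CPM in input WT and 144, 164 and 110 in input KO, every KO library below every WT library. The log2 fold change was -0.59 ± 0.09 (edgeR unadjusted p = 0.00014, adjusted p = 0.101). It passed the threshold under DESeq2 (adjusted p = 1.04e-07), with no filter on low counts (0.0391), without input KO replicate 2 (0.0184) and without the 3 inputs high for choroid plexus genes (0.0355). Without the sex covariate it was -0.43 (0.288), and without input KO replicate 3 it was -0.40 (0.801). In TRAP, where Kcnt1 was far lower, the difference was -0.34 ± 0.33. Kcnc1 was the other member called by DESeq2 in input (log2 fold change -0.25, adjusted p = 0.0244). By edgeR it was -0.26 ± 0.06 (adjusted p = 0.195).

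Kcnj2 (Kir2.1) was at 0.476, 0.504 and 0.495 CPM in TRAP WT and 0.936, 0.771, 1.11 and 1.01 in TRAP KO, so the groups did not overlap at this low level (0.99 ± 0.35, adjusted p = 1). Kcnmb4 was lower in TRAP KO by value, -0.56 ± 0.23 (adjusted p = 1), with its highest KO library above its lowest WT library. For Kcnma1 the values were -0.10 ± 0.23 in TRAP and 0.09 ± 0.14 in input.

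**Figure D5:**
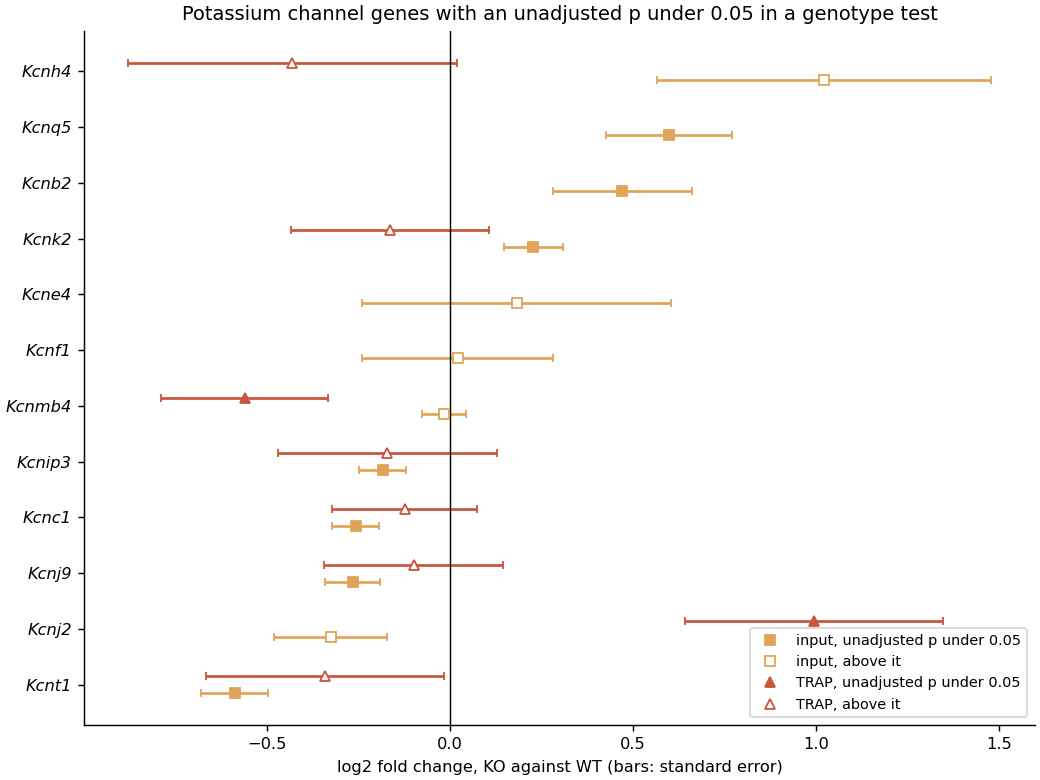
Log2 fold change of KO against WT (horizontal axis) with its standard error for 12 members with an unadjusted p under 0.05 in a genotype test or in the interaction; squares are input, triangles TRAP, and filled symbols have an unadjusted p under 0.05 in that fraction. Genes without a triangle did not reach the filter in TRAP. None passed the adjusted threshold in edgeR.

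Of the members tested, 9 were called in TRAP against input in 1 genotype and not in the other. Among them, Kcnd1, Kcnj11 and Kcnj14 were called in WT alone, and Kcne2, Kcng2, Kcnh5, Kcnj13 and Kcnk4 in KO alone. The test of the difference itself gave an adjusted p of 0.999 for each of the 9, so none was shown to differ between the genotypes. Without TRAP WT replicate 3, Kcnd1, Kcnj11 and Kcnj14 lost their WT calls, at 0.29, 0.25 and -1.86, and Kcng2 gained one (0.61, adjusted p = 0.0380). Kcnj14 also lost its call without TRAP WT replicate 1 (-1.57), and Kcnd1 without TRAP WT replicate 2 (0.47) or input WT replicate 1, 3 or 4 (0.55 to 0.57). With genotype and replicate number as a block, in the fit without input WT replicate 4 and TRAP KO replicate 4, Kcnd1 was not called in WT (0.50, adjusted p = 0.0756). Without TRAP WT replicate 1 it was 0.87 and called. The Kcnj14 value was -3.60 without TRAP WT replicate 2. Without the 3 inputs high in choroid plexus markers, the calls of Kcnd1 (0.57) and Kcnj14 (-2.14) in WT and of Kcnk4 (0.56) in KO were lost. Kcnk4 lost its KO call in 7 of the fits without 1 library, at 0.53 to 0.73. Of the 93 members, 28 have exons that overlap another annotated gene, among them Kcnma1, Kcnmb4, Kcnab1 and Kcna6 with a gene on the opposite strand, and the strand setting of the counts is not given in the sources used here, so reads of such pairs cannot be told apart. Kcnab2 and Kcnk4 overlap a gene on the same strand, where a strand setting would not separate the reads.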

How the data were processed

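Read counts per gene were deposited by the authors as 1 table of whole numbers, not normalized, with Entrez gene numbers as row names and 1 column for each of the 14 libraries. Salmon 0.8.2 and mm10 are named per the submitters' processing notes, with no role stated; the counting tool, annotation and strand setting are not given in the sources used here. Symbols came from the RefSeq table of GRCm38.p6, which matched 24045 of 24100 genes. Transcript lengths came from GENCODE M21.

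Counts were tested with edgeR 4.0.16 (quasi-likelihood, two-sided, TMM, sex as covariate) in R 4.3.3, keeping genes by filterByExpr (minimum count 10 in at least 3 libraries), with Benjamini-Hochberg adjustment over all genes at 0.05. TRAP against input and the interaction used all 14 libraries, and genotype used the 7 libraries of a fraction. CPM used TMM factors over all 14 libraries, and the tests were tested on simulated data. Total counts ran from 18.8 to 54.2 M (M, 1000000), and limits at 3 counts cover counting error only. Standard errors were derived from the fold change and its F statistic.

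A few members are not reported here. Members and lists were chosen with earlier results of these data known. Named members are Kcnma1, the highest member of each subfamily by mean CPM, the 10 highest and 10 lowest TRAP against input values in WT among called members with a mean of at least 1 CPM, and members called or with an unadjusted p under 0.05 in a genotype test or the interaction; members called in 1 genotype only were to be a count with up to 4 names. Other members named, including those called in 1 genotype beyond 4, were picked to complete a subfamily after their values were seen.

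Same-numbered input and TRAP libraries of WT deviated together from their group means (r = 0.32, 0.26 and 0.11). TRAP WT replicate 3 had a higher r with input WT replicate 4 (0.20), so the numbers were not shown to pair the libraries. The main fit used no pairing. Alternatives were DESeq2 1.42.0 (size factors and Wald test), library totals, other filters, no sex covariate, each library left out, replicate blocks, a threshold of 0.01, other sets of libraries in the fit and, chosen after seeing the data, 3 inputs left out.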

Additional observations from a re-analysis of the deposited data

Results flagged for a closer look

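For 5 of 76 values tested, 1 library lay far from the other 3 of its group: the gap to its nearest neighbour, divided by the range of the group, exceeded Dixon's 95% critical value. Chance alone gives about 1 in 20. Kcnab1 in TRAP KO had replicate 4 at 1078 CPM against 825 to 859 (0.849). Kcnd2 in input WT had replicate 1 at 129 CPM against 151 to 152 (0.945). Kcnj2 in input WT had replicate 1 at 3.01 CPM against 2.23 to 2.34 (0.846). Kcnk9 in TRAP KO had replicate 1 at 0.468 CPM against 0.876 to 0.968 (0.837). Kcnu1 in TRAP KO had replicate 2 at 0.385 CPM against 0.220 to 0.234 (0.911).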

How the results depend on the processing

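TRAP against input kept its counts within 1.5 times under every alternative run: leaving out each library gave 60 to 66 members called in WT and 55 to 66 in KO, and library totals gave 68 and 72. KO against WT in TRAP, and the interaction, gave 0 called under each. KO against WT in input gave 1 with no filter on low counts, 2 with the DESeq2 Wald test, 1 with the 3 inputs high in choroid plexus genes left out (chosen after seeing the data), and 0 to 1 over the fits without a library, the 1 being without input KO replicate 2. Over all genes, these fits called 23 of 20648, 294 of 15997, 77 of 15607 and, without input KO replicate 2, 158 of 16083. With the replicate block, 18 members were called higher and 42 lower in WT (60 in all), against 19 and 40 in KO (59 in all). This fit also left out input WT replicate 4 and TRAP KO replicate 4. The block changed no count by over 1.5 times. In KO the same-numbered libraries had r of 0.25, 0.25 and -0.14. Input KO replicate 3 had an r of 0.37 with TRAP KO replicate 4, so pairing by number was not shown in KO either. Same-numbered libraries of different genotypes share only a number. In a block by number, KO against WT called 0 in TRAP and 0 in input.

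Of 2446 values of named members under the alternatives, 2323 kept direction and call, 59 lost a call, 22 gained one and 42 changed sign. The log2 fold changes of TRAP against input that changed sign follow, and the cause was not tested. With library totals, the value was Kcnd1 (WT) -0.26, Kcnd1 (KO) -0.65, Kcng2 (WT) -0.36, Kcnh2 (WT) -0.82, Kcnh2 (KO) -0.59, Kcnj11 (WT) -0.23, Kcnj11 (KO) -0.43, Kcnk1 (WT) -0.75, Kcnk4 (WT) -0.68, Kcnk4 (KO) -0.0477, Kcnn2 (WT) -0.35 and Kcnn2 (KO) -0.59. With a mean count of at least 50, the value was Kcnd1 (KO) -0.11, Kcnh2 (WT) -0.20, Kcnh2 (KO) -0.0495, Kcnk1 (WT) -0.14 and Kcnn2 (KO) -0.039. With the 3 inputs high in choroid plexus genes left out, the value was Kcne2 (WT) 1.69, Kcne2 (KO) 0.75, Kcnh2 (WT) -0.0146, Kcnj9 (KO) 0.0181 and Kcnk1 (KO) 0.0209. With no filter on low counts, the value was Kcnh2 (WT) -0.000933. With no sex covariate, the value was Kcnh2 (WT) -0.000871. With only the 7 libraries of WT, the value was Kcnh2 (WT) -0.0223. With the replicate block, the value was Kcnj9 (KO) 0.0212. With each library left out, the range was -0.0571 to 0.16 for Kcnd1 (KO), -6.39 to 0.95 for Kcne2 (KO), -0.0623 to 0.0243 for Kcnh2 (WT), -0.48 to 0.10 for Kcnj9 (WT), -0.19 to 0.0271 for Kcnj9 (KO), -0.14 to 0.17 for Kcnk1 (WT), -0.16 to 0.0298 for Kcnk1 (KO), -0.0606 to 0.36 for Kcnk4 (WT) and -0.0787 to 0.67 for Kcnn2 (WT).

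Depth limits members near 3 counts per library, and genes overlapping another gene on either strand are uncertain.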
